A study of Mus musculus with 9 samples.

Results

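Hepatokines are proteins that the liver secretes into blood and that act on other tissues or on circulating lipids. The 9 genes described here were Fgf21, Angptl4, Angptl6, Ahsg, Fetub, Igf1, Inhbe, Rbp4 and Lect2, of 37074 gene names on the array, and they were chosen by name, as every non-control probe that carried 1 of these names. They had 11 probes of 56605 probe names, 3 of them for Igf1 and 1 for each other gene. Liver RNA was measured on 9 one-colour Agilent arrays of 60-base probes, 3 for each of 3 groups of male mice. Per the labels all mice were 12 months old. The published results count that interval from the injection instead. AAV-V mice carried a control adeno-associated virus and ate a normal diet, AAV-GP73 mice carried the same kind of virus encoding GP73 (the Golgi protein encoded by Golm1) and also ate a normal diet, and AAV-V HFD mice carried the control virus and ate a high-fat diet (HFD). All were of the C57BL/6N strain and all received the virus, which was hepatocyte-specific and given into a vein every 6 months. The comparisons ask which liver-derived hormones changed in transcript level with hepatocyte GP73 in lean mice and with the diet used to model obese fatty liver. The published results and methods differ on how long the HFD lasted, and whether an array held 1 mouse or a pool was not stated, so that p-values measure the spread between arrays.

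Fibroblast growth factor 21 (Fgf21) and insulin-like growth factor 1 (Igf1) are peptide hormones: the first is released by the liver in fasting and in cellular stress and acts through the coreceptor Klb, and the second is made by hepatocytes under growth hormone. Angptl4 and Angptl6 encode angiopoietin-like proteins, of which the former inhibits lipoprotein lipase and the latter acts on energy use and blood vessels. Ahsg and Fetub encode fetuin-A and fetuin-B, abundant plasma proteins of the cystatin superfamily. Rbp4 carries retinol in plasma together with transthyretin (Ttr), Inhbe encodes the activin E subunit of the TGF-beta family, and Lect2 encodes a chemotactic protein that rises with liver fat.

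The probe sequences show where on each transcript the signal was read. Of the 11 probes, 3 a polyadenylation hexamer (AATAAA or ATTAAA, searched on the probe strand) within their last 30 bases, against 10.8% of all 56605 probes, and these are shown with the hexamer in capitals, since they place the probe at the end of the transcript.
Ahsg (chr16:22899415-22899474, mm9, plus strand): caatcttcaatctagccataAATAAAagtg
Inhbe (chr10:126786719-126786778, mm9, minus strand): gtgacatacattttatattttcttAATAAA
Rbp4 (chr19:38191129-38191188, mm9, minus strand): ttgggattccaaacttggtttATTAAAcat
The last 30 bases of the Fgf21 probe and of the 3 Igf1 probes are shown next, because these probes differed most in what they detected.
Fgf21 (chr7:52869305-52869364, mm9, minus strand): atttatcttatttatttattttagtttttt
Igf1, A_52_P306327 (chr10:87325382-87325441, mm9, plus strand): atagagccattaagtagagagctcactcac
Igf1, A_55_P2085979 (chr10:87378456-87378515, mm9, plus strand): cctccccttcttaaaaatataaatcagagt
Igf1, A_51_P147942 (chr10:87393516-87393575, mm9, plus strand): caaaacatcgaaacacctaccaaataacaa
The 60 bases of the Fgf21 probe held 20% G and C, lower than in all but 0.15% of probes, where the median probe held 41.7%. The Igf1 probes were designed on the accessions AK050118, NM_184052 and NM_010512 in the order shown, held 35%, 36.7% and 45% G and C, and lay 53014 and 15000 bases apart along the gene. The other probes were at chr17:33911880-33911939 for Angptl4, chr9:20678326-20678385 for Angptl6, chr16:22939736-22939795 for Fetub and chr13:56643950-56644009 for Lect2, all on mm9. No gene model of that build was at hand to assign exons.

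Upstream sequence was searched because Fgf21 and Inhbe are known targets of the stress factor ATF4. Of 9 motifs searched on both strands, the C/EBP-ATF element TGATGCAA was found in the 250 bases before the start of 2 of the 8 hepatokine genes with a promoter entry, Fgf21 and Inhbe, and in 0.791% of 32851 windows of the same length (RefSeq, GRCm38.p6). Both matches lay on the opposite strand, and the capitals mark its reverse complement.
Fgf21 (chr7:45615491-45615740, GRCm38.p6, minus strand): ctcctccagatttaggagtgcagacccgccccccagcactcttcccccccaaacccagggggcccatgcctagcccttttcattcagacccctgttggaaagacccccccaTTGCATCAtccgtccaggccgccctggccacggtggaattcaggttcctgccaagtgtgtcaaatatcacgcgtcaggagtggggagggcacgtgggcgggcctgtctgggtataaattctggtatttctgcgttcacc
Inhbe (chr10:127351849-127352098, GRCm38.p6, minus strand): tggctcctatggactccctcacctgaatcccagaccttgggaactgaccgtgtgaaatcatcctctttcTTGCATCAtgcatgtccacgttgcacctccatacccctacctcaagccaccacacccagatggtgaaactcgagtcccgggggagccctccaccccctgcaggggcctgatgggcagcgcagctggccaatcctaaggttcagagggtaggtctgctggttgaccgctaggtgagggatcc
The other motifs were TATAAA (Fetub, Fgf21 and Rbp4, 12.4% of windows), CCAAT (Fetub, Igf1, Inhbe and Rbp4, 33.8%), AGAACA (Ahsg and Fetub, 16.1%), AGGTCA (Igf1, 14% of windows) and 4 that no hepatokine window held, namely TTGCGCAA, TGACGTCA and the DR1 and HNF1 consensus motifs, the former of which contains AGGTCA. A match of letters is a description of the sequence and not a binding site.

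The groups differed in overall brightness. Probes well above background, by the flag of the scanner software, made up 6.67 to 7.21% of probe names on AAV-V arrays, 12.5 to 14.9% on AAV-GP73 arrays and 10.2 to 13.2% on AAV-V HFD arrays. AAV-V and AAV-GP73 arrays shared 1 slide and AAV-V HFD arrays lay on another. A difference of AAV-V HFD from either group therefore cannot be told apart from an effect of slide. On the shared slide the first position number was 1 for every AAV-V array and 2 for every AAV-GP73 array. The effects of that position and of GP73 cannot be told apart either. Signals are given as scaled log2 signals, that is the log2 processed signal after each array was shifted to 1 common 75th percentile of the 2669 probes well above background on all 9 arrays, and "detected" means well above background. Calls required a 2-fold or larger change and a limma adjusted p under 0.05 across the 6593 probes detected on all arrays of at least 1 group. Against AAV-V, these probes had a median log2 fold change of 0.64 (AAV-GP73) and 0.41 (AAV-V HFD). With arrays set instead to the 75th percentile of all probes, called all-probe scaling below, the medians were 1.63 and 1.36, and calls that were 65.4% and 59.7% higher became 91.3% and 95.2% higher. Each hepatokine fold change against AAV-V is therefore also given relative to the median of all tested probes, a difference that does not depend on a shift of whole arrays. That median does depend on which probes were tested. With the main scaling, probes detected on all 9 arrays had medians of -0.11 (AAV-GP73) and -0.27 (AAV-V HFD). The 3924 other tested probes had medians of 0.97 and 0.69. A probe detected on all 9 arrays can thus lie below the median of all tested probes and above that of probes detected as it was. The single Golm1 probe was not detected on any of the 9 arrays, and although the virus is stated to encode mouse GP73, whether its insert holds the bases under this probe was not stated, so that the probe does not check the labels.

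Of the 11 hepatokine probes 9 were tested, for 8 genes, and 5 of them were detected on all 9 arrays. The others, for Angptl4, Angptl6, Inhbe and Lect2, were detected on all arrays of AAV-GP73 only. They entered the test through that group, and such a filter favours higher values in it. Against AAV-V, AAV-GP73 livers had 2 probes called higher, for Angptl4 and Fetub, where 34.0% of all tested probes were called higher, and 1 called lower, 1 of the Igf1 probes, where 17.9% were called lower. AAV-V HFD livers had 0 of the 9 called higher and the same Igf1 probe called lower, where 25.1% and 16.9% of all tested probes were called. Unadjusted limma p under 0.05 were found for 4 of the 9 probes in AAV-GP73, and for 1 in AAV-V HFD. Among all 6593 tested probes they were found for 4327 and 3945. The hepatokine shares were thus no larger than those of the array as a whole. Their median log2 fold changes against AAV-V were 0.54 (AAV-GP73) and 0.05 (AAV-V HFD). All-probe scaling called 7 of the 9 higher for AAV-GP73 against 4 for AAV-V HFD, with none lower, spike-in scaling, by probes for RNA added to each sample, called 8 and 6 higher, and with the authors' own normalized values only the Igf1 probe was called in AAV-GP73. For AAV-GP73, all-probe scaling called 4375 and spike-in scaling 5124 of all 6593 tested probes higher. In whole liver, fewer cells of a type and less RNA per cell cannot be told apart.

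**Figure D1:**
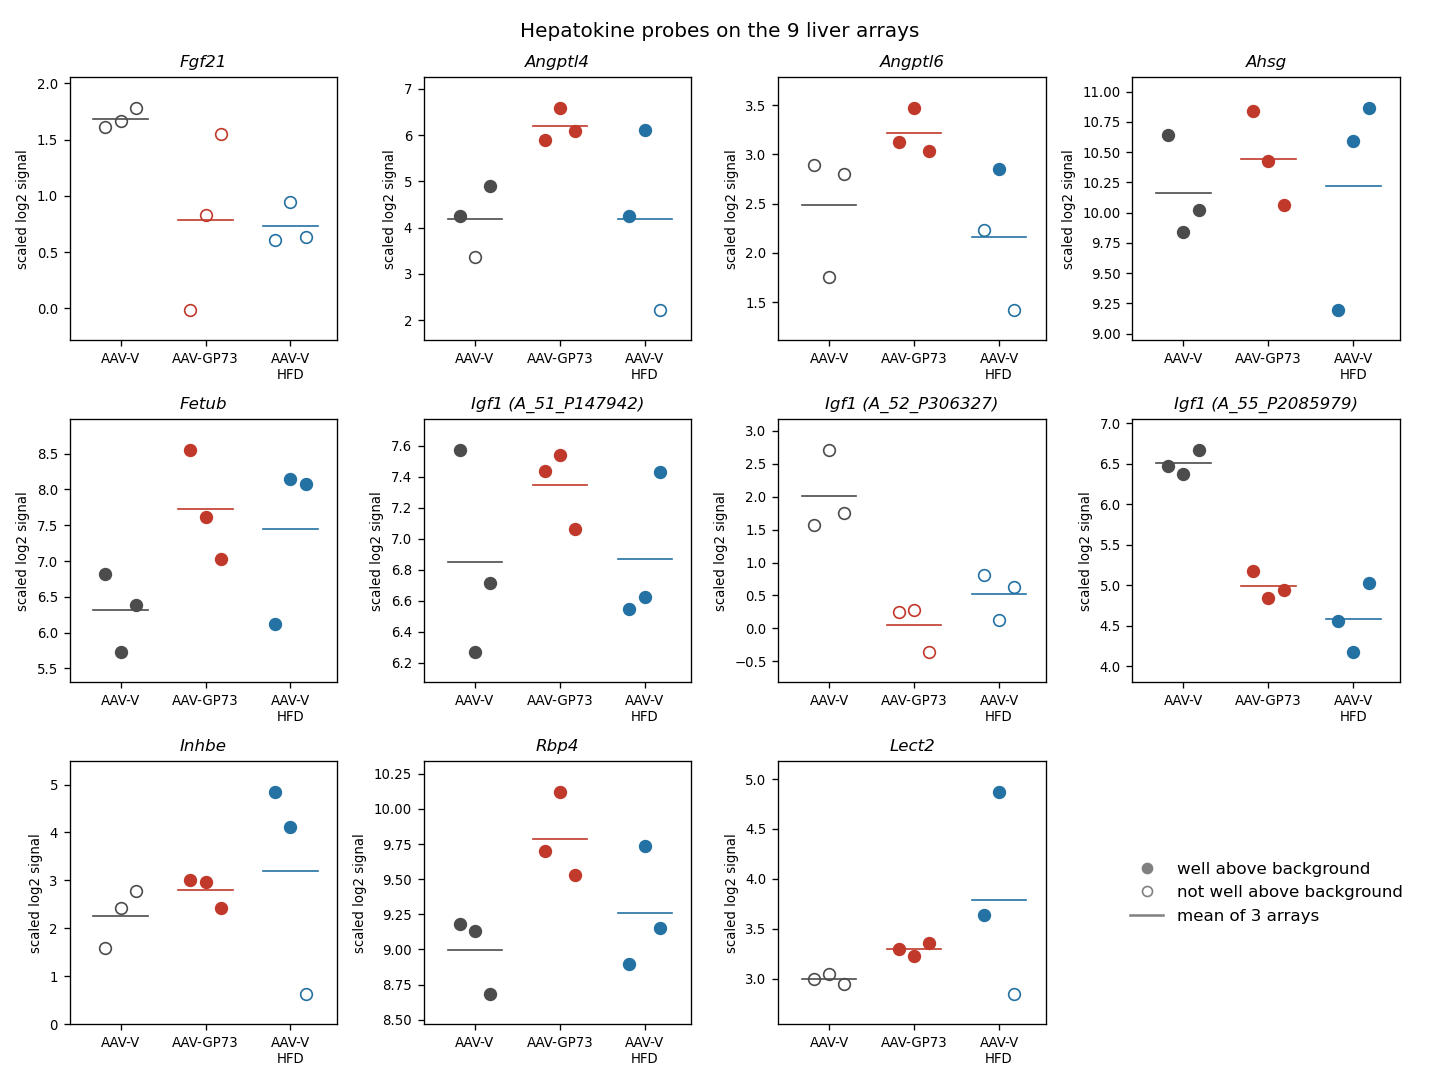
Scaled log2 signal (y axis) of each of the 11 hepatokine probes on the 9 arrays, by group on the x axis, with filled points for arrays on which the probe was well above background, open points for the others, and lines at the mean of 3 arrays. For Angptl4 the 3 AAV-GP73 arrays lie above the 3 AAV-V arrays and 1 AAV-V HFD array, at 6.12, lies among them, Igf1 probe A_55_P2085979 is highest on the 3 AAV-V arrays, and the scale of the y axis differs between panels.

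Angptl4, the inhibitor of lipoprotein lipase, had scaled log2 signals of 4.25, 3.38 and 4.90 on the AAV-V arrays and of 5.90, 6.60 and 6.08 on the AAV-GP73 arrays. Every AAV-GP73 array lay above every AAV-V array, and the probe was detected on 2 of the 3 AAV-V arrays and on all 3 AAV-GP73 arrays. The log2 fold change was 2.02 ± 0.75 (SE, n = 3 arrays per group, limma adjusted p = 0.0351), 1.38 above the median of all tested probes. The call was lost without any 1 of 5 arrays, AAV-V replicate 1 or 2 or any AAV-GP73 replicate, at log2 fold changes of 1.62 to 2.16 and adjusted p of 0.0611 to 0.119, and was also lost with the authors' values (2.06, adjusted p = 0.0640) or after normexp, a model-based background correction of the raw signal applied together with an offset of 16 (0.87, adjusted p = 0.111). On the AAV-V HFD arrays the signals were 4.26, 6.12 and 2.22, the last of them not detected. The second of them lay among the AAV-GP73 arrays, and the others lay below all of those. Against AAV-V the log2 fold change was 0.02 ± 0.75 (adjusted p = 0.985), which lay -0.39 from the median of tested probes, and AAV-GP73 exceeded AAV-V HFD by 2.00 ± 0.75 (adjusted p = 0.198). Both moved with single AAV-V HFD arrays. Without replicate 3 each was 1.01, neither of them called (the latter at adjusted p = 0.433), and without replicate 2 they were -0.94 (adjusted p = 0.212) and 2.95 (adjusted p = 0.0295).

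Angptl6 was dimmer. Its processed signals, before scaling, were 3.67, 1.57 and 3.82 on AAV-V arrays, none of them detected, and 11.6, 15.1 and 14.0 on AAV-GP73 arrays, all of them detected. After scaling the lowest detected signal of an AAV-V array was 3.77 to 3.94, above the AAV-GP73 values of 3.12, 3.47 and 3.04, so that no lower bound on the fold change could be set. The fitted log2 fold change was 0.73 ± 0.40 (adjusted p = 0.133), 0.09 above the median of all tested probes, and it was 1.72 and called with all-probe scaling (adjusted p = 0.00373). AAV-V HFD arrays read 2.23, 2.85 and 1.42 after scaling with detection on 1 of 3, and AAV-GP73 exceeded each of them, by a log2 difference of 1.05 ± 0.40 (adjusted p = 0.211). AAV-V HFD differed from AAV-V by -0.32 ± 0.40 (adjusted p = 0.526), -0.73 relative to the median, and without AAV-V HFD replicate 3 the former difference was 0.67 and the latter 0.054, neither of them called. Over the 9 arrays the scaled signals of Angptl6 and Angptl4 had a Pearson r of 0.93, the highest of the 36 pairs of tested hepatokine probes, as a description over arrays that share their scaling and of which 5 did not detect Angptl6.

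The fetuin genes Ahsg and Fetub are neighbours on chromosome 16, with 40261 bases between their probes in mm9. Fetub, fetuin-B, had scaled log2 signals of 6.82, 5.73 and 6.39 on AAV-V arrays, 8.56, 7.61 and 7.03 on AAV-GP73 arrays and 6.12, 8.14 and 8.08 on AAV-V HFD arrays, with detection on all 9. All AAV-GP73 arrays lay above all AAV-V arrays, whereas 1 AAV-V HFD array lay among them. Fetub was higher in AAV-GP73 by 1.42 ± 0.55 on the log2 scale (SE, n = 3, limma adjusted p = 0.0423), 0.78 above the median of all tested probes. The call was lost without AAV-V replicate 2 (1.12) or 3 (1.46) and without AAV-GP73 replicate 1 (1.00) or 2 (1.48), at adjusted p of 0.0788 to 0.169, and with quantile normalization (1.31, adjusted p = 0.0664) or the authors' values (1.15, adjusted p = 0.120) and after normexp with the offset (1.11, adjusted p = 0.0910). It was also lost with the replicate number as a block (limma adjusted p = 0.0641). In AAV-V HFD the difference from AAV-V was 1.13 ± 0.55 (limma adjusted p = 0.101), 0.72 above the median, and without AAV-V HFD replicate 1, the low array, it was 1.80 and called (adjusted p = 0.0106).

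Ahsg, fetuin-A, read 10.64, 9.84 and 10.02 on AAV-V arrays, 10.84, 10.43 and 10.06 on AAV-GP73 arrays and 9.20, 10.59 and 10.87 on AAV-V HFD arrays, and the 3 groups overlapped. Its log2 fold changes were 0.28 ± 0.43 (adjusted p = 0.583, 95% interval -0.65 to 1.21) and 0.05 ± 0.43 (adjusted p = 0.927), each 0.36 below the median of all tested probes. Both fold changes lay above the medians of probes detected on all 9 arrays, -0.11 and -0.27. With all-probe scaling they were 1.27 (adjusted p = 0.00890) and 1.00 (adjusted p = 0.0351), both called higher. Within an array, where a shift of the whole array cancels, the Fetub log2 signal minus that of Ahsg was -3.85 ± 0.24 in AAV-V (SD, n = 3), -2.71 ± 0.39 on AAV-GP73 arrays and -2.77 ± 0.31 on AAV-V HFD arrays. The difference ran from -4.11 to -3.63 on AAV-V arrays and from -3.07 to -2.28 on the other 6, without overlap, so that the signal of Fetub moved up relative to that of Ahsg in both groups. Quantile normalization is no such shift, and with it the AAV-GP73 fold changes against AAV-V lay closer together, at 1.31 for Fetub and 0.60 for Ahsg. The Fetub and Ahsg pair was set side by side after the values had been seen, and no test was made of it.

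Igf1 gave a different reading from each of its probes. A_52_P306327, on AK050118, was flagged well above background on none of the 9 arrays. A_51_P147942, on NM_010512, read 7.58, 6.27 and 6.71 on AAV-V arrays, 7.44, 7.54 and 7.06 on AAV-GP73 arrays and 6.55, 6.63 and 7.43 on AAV-V HFD arrays, and the groups overlapped. Its log2 fold changes against AAV-V were 0.49 ± 0.37 (adjusted p = 0.262, 95% interval -0.32 to 1.31) and 0.01 ± 0.37 (adjusted p = 0.977, 95% interval -0.80 to 0.83), -0.14 and -0.39 relative to the medians of all tested probes. Both fold changes lay above the medians of probes detected on all 9 arrays, -0.11 and -0.27. With all-probe scaling they were 1.49, called higher (adjusted p = 0.00199), and 0.97 (adjusted p = 0.0292), and with spike-in scaling 2.17 (adjusted p = 1.93e-04) and 1.35 (adjusted p = 0.00720), both called higher. A_55_P2085979, on NM_184052, read 6.47, 6.38 and 6.68 on AAV-V arrays, 5.17, 4.85 and 4.94 on AAV-GP73 arrays and 4.56, 4.18 and 5.03 on AAV-V HFD arrays. Both groups lay below AAV-V on every array, by a log2 fold change of -1.52 ± 0.29 for AAV-GP73 (limma adjusted p = 8.67e-04) and of -1.92 ± 0.29 for AAV-V HFD arrays (adjusted p = 5.27e-04). Measured from the median of the tested probes, these were -2.16 and -2.33. The call stood without any 1 array and with the authors' values, was lost with all-probe scaling (-0.53, adjusted p = 0.117, and -0.97, adjusted p = 0.0118), and was lost with spike-in scaling, where AAV-GP73 turned in sign (0.16, adjusted p = 0.622) and AAV-V HFD was at -0.59 (adjusted p = 0.0827). The scaling thus set which of the Igf1 probes was called. Before any scaling the processed signals of this probe were 44.0, 38.8 and 55.9 on AAV-V arrays and 48.0, 39.0 and 52.2 on AAV-GP73 arrays.

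What does not depend on a shift of whole arrays is the difference between the 2 detected Igf1 probes on the same array. A_51_P147942 minus A_55_P2085979 was 1.11, -0.11 and 0.04 on AAV-V arrays, 2.27, 2.70 and 2.12 on AAV-GP73 arrays and 1.99, 2.45 and 2.40 on AAV-V HFD arrays, in log2 units. Every AAV-GP73 and AAV-V HFD array lay above every AAV-V array. The group means of 2.36 ± 0.30 (SD, n = 3) for AAV-GP73 arrays and 2.28 ± 0.25 for AAV-V HFD arrays exceeded the 0.34 ± 0.66 of AAV-V by 2.02 and 1.94, each with a two-sided exact permutation p of 0.1, the smallest that 3 arrays against 3 allow. AAV-GP73 and AAV-V HFD differed by 0.08 (exact permutation p = 0.9). The probes therefore changed unequally, and which of them stands for the Igf1 transcript as a whole was not tested.

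**Figure D2:**
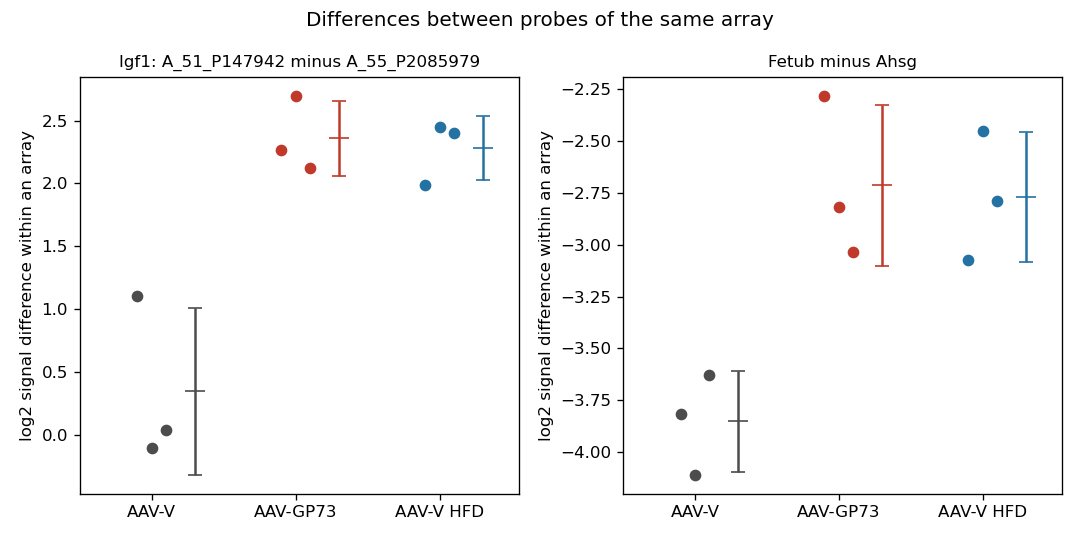
Log2 signal difference between probes of the same array (y axis) for the 2 detected Igf1 probes (left) and for Fetub and Ahsg (right), with points for arrays and, beside them, the mean and SD of 3 arrays per group. In both panels the 3 AAV-V arrays lie below the other 6 arrays, at up to 1.11 for Igf1 and up to -3.63 for Fetub minus Ahsg.

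Rbp4, the plasma retinol carrier, read 9.18, 9.13 and 8.68 on AAV-V arrays, 9.70, 10.12 and 9.53 on AAV-GP73 arrays and 8.90, 9.73 and 9.15 on AAV-V HFD arrays, with detection on all 9. Every AAV-GP73 array lay above every AAV-V array. The log2 fold change was 0.79 ± 0.31 (adjusted p = 0.0426), which was under the 2-fold threshold and 0.15 above the median of all tested probes. It was 1.78 and called with all-probe scaling (adjusted p = 3.17e-04). For AAV-V HFD the log2 fold change was 0.27 ± 0.31 (adjusted p = 0.485), -0.14 relative to the median. This value lay above -0.27, the median of probes detected on all 9 arrays. All-probe scaling gave 1.22, a call (adjusted p = 0.00534). AAV-GP73 exceeded AAV-V HFD by 0.52 ± 0.31 (adjusted p = 0.443).

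Fgf21 was not detected on any array, and Inhbe and Lect2 were not detected on any AAV-V array. Inhbe, the activin E subunit, had processed signals of 1.50, 2.50 and 3.75 on AAV-V arrays without detection, of 10.8, 10.6 and 9.13 on AAV-GP73 arrays with detection on all 3, and of 48.9, 25.8 and 1.57 on AAV-V HFD arrays with detection on the first and second. AAV-V HFD thus held both the brightest arrays and 1 at background. After scaling, the AAV-GP73 values of 2.43 to 3.02 lay below the lowest detected signals of the AAV-V arrays, 3.77 to 3.94. Detection on AAV-GP73 arrays and not on AAV-V arrays is therefore no measure of a difference. The fitted log2 fold change was 0.54 ± 0.82 for AAV-GP73 (adjusted p = 0.581), -0.10 relative to the median, and 2.22 and called with spike-in scaling (adjusted p = 0.0296). For AAV-V HFD it was 0.93 ± 0.82 (adjusted p = 0.355), 0.52 above the median, and 2.26 and called with spike-in scaling (adjusted p = 0.0311), and without AAV-V HFD replicate 3 it was 2.21 and called (adjusted p = 0.00248).

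Lect2, the chemotactic hepatokine, had processed signals of 3.95, 3.86 and 4.22 on AAV-V arrays without detection, of 13.1, 12.7 and 17.4 on AAV-GP73 arrays with detection on all 3, and of 21.0, 44.0 and 7.33 on AAV-V HFD arrays with detection on the first and second. Its scaled AAV-GP73 values, 3.23 to 3.36, also lay below the lowest detected signals of the AAV-V arrays, 3.77 to 3.94, with the same limit as for Inhbe. Fitted log2 fold changes were 0.30 ± 0.42 (adjusted p = 0.546) and 0.79 ± 0.42 (adjusted p = 0.127), 0.34 below and 0.38 above the medians of all tested probes. With all-probe scaling they were 1.29 (adjusted p = 0.0223) and 1.74 (adjusted p = 0.00511), and with spike-in scaling 1.98 (adjusted p = 0.00175) and 2.12 (adjusted p = 0.00145), all called higher. Without AAV-V HFD replicate 3, the value for AAV-V HFD was 1.26 and called (adjusted p = 0.0156), and with the authors' values for all arrays it was also 1.26 and called (adjusted p = 0.0354). The same array, AAV-V HFD replicate 3, was the lowest of its group for Angptl4, Angptl6, Inhbe and Lect2 and had the fewest probes detected in it, 10.2%. The values without it stand beside each of these genes.

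Fgf21, the hormone of fasting and stress, had processed signals of 1.51, 1.48 and 1.88 on AAV-V arrays, 1.32, 2.41 and 4.96 on AAV-GP73 arrays and 2.58, 2.90 and 1.58 on AAV-V HFD arrays. None of these was well above background, so Fgf21 was not tested and no change is given for it. The base composition of its probe is given above, and its part in the missing detection was not tested.

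**Figure D3:**
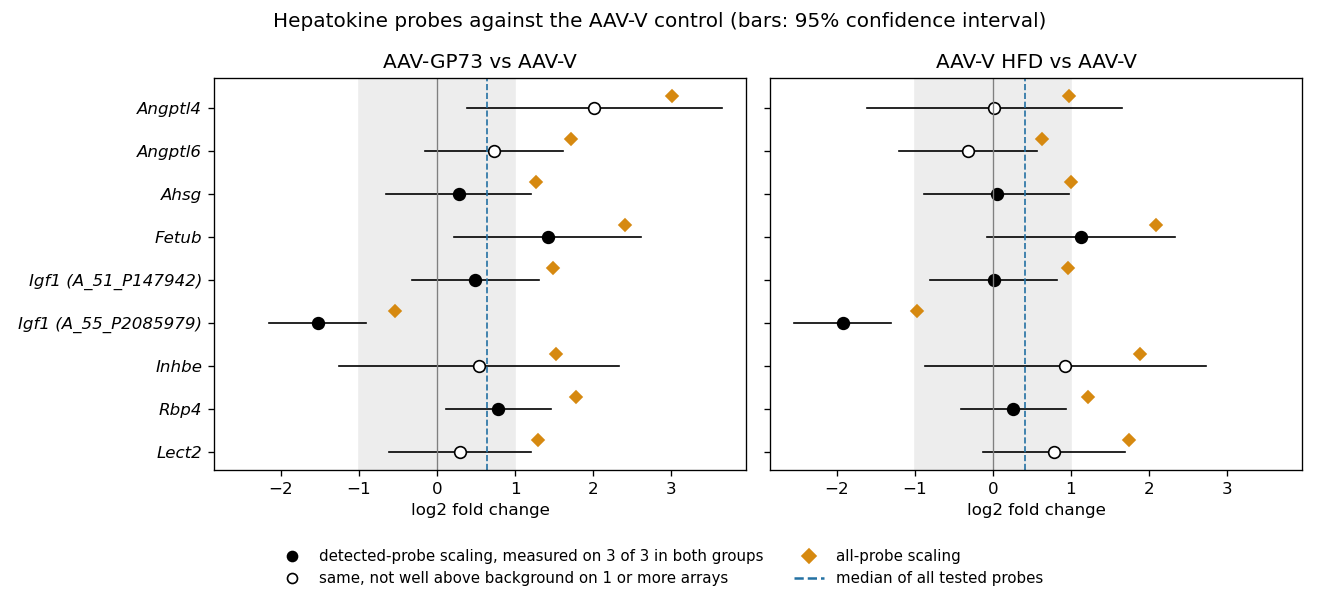
Log2 fold change (x axis) of the 9 tested hepatokine probes in AAV-GP73 (left) and AAV-V HFD (right) against AAV-V, with circles and bars for the limma estimate and its 95% confidence interval, open circles where the probe was not detected on some array of the 2 groups, diamonds for all-probe scaling, a dashed line at the median of all tested probes and grey shading for changes under 2-fold. Every diamond lies to the right of its circle, and in the left panel Igf1 probe A_55_P2085979 is furthest below the dashed line, at -1.52.

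Between AAV-GP73 and AAV-V HFD none of the 9 tested probes was called, where 2.09% of all tested probes were called higher and 0.592% lower. Limma gave 2 of the 9 an unadjusted p under 0.05, against 1065 of all 6593 tested probes. The largest of the 9 differences were those of Angptl4 and Angptl6 given above. The hepatokines' median difference was 0.40 and that of all tested probes 0.10. An interval as wide as that of Inhbe, -2.19 to 1.40, leaves room for a change of more than 2-fold in either direction.

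Pearson correlation over the 9 arrays named, for each hepatokine probe detected throughout, the 3 genes with the most similar scaled signals among the probes detected on all arrays, as a description of arrays that share their scaling. Fetub was most like Serpinf2 (r = 0.99), Hp (0.98) and Serping1 (0.98), which encode plasma proteins made in the liver. Ahsg was most like Trf (0.94), Fgb (0.94) and Ctsl (0.93), of which the former pair encode transferrin and a fibrinogen chain. Rbp4 was most like Azgp1 (0.90), Igfbp7 (0.85) and Pon1 (0.84). The neighbours of the Igf1 probes had no gene in common, being Apoc4, Esco1 and Rbm25 (0.93 to 0.94) for A_51_P147942 and Dbi, Dffa and the predicted gene Gm36556 (0.98 to 0.99) for A_55_P2085979.

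Genes that act with the hepatokines were read from lists chosen by role, each gene by its brightest probe. Of 17 FGF21 receptors and transcriptional regulators 8 were tested, and 6 were called higher in AAV-GP73 and none lower, beside the 34.0% of all tested probes called higher. Of the 8 only Rxra was detected on all arrays of both groups, whereas all 8 were detected on every AAV-GP73 and AAV-V HFD array. Among all tested probes not detected on all 9 arrays, 1815 of 3924 were called higher. The 6 genes were the nuclear receptors Ppara, Rxra, Rora and Nr1h4, the liver transcription factor Creb3l3 and the stress factor Atf4. Rxra rose by 1.63 ± 0.27 (adjusted p = 4.10e-04). Creb3l3 had a mean scaled log2 signal of 5.77 in AAV-GP73 and of 2.24, without detection, in AAV-V. With the main scaling this makes it at least 3.76-fold higher, and the fitted change had a limma adjusted p of 2.38e-05. After normexp with an offset of 16 its log2 fold change was 0.96, under 2-fold and not called. The same 6 genes were called higher in AAV-V HFD, where 25.1% of all tested probes were, and both comparisons share the AAV-V arrays. Of the tested probes not detected on all 9 arrays, 1342 of 3924 were called higher in AAV-V HFD. In AAV-GP73 the list gave 6 or 7 calls under quantile normalization, all-probe and spike-in scaling and the authors' values, and 1 (Rxra) after normexp with an offset of 16, each of them higher. In AAV-V HFD it likewise gave 6 or 7 calls under the former settings, all higher, but 0 after normexp. There Ppara, Rora and Nr1h4 were at -0.013, -0.24 and -0.056, whereas Rxra, Creb3l3 and Atf4 kept a positive sign. Fgfr4, a receptor that pairs with Klb, was at -0.71 ± 0.25 (adjusted p = 0.0272), under 2-fold, with its sign turned to 0.28 by all-probe scaling, and Klb itself was not tested.

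In the growth hormone and IGF1 axis 11 of 24 genes were tested in AAV-GP73, 3 of them called higher and 1 called lower, beside 34.0% and 17.9% of all tested probes, and 4 of the 11 were detected on all arrays of both groups. Hnf4a, a master regulator of hepatocyte genes, rose by 2.46 ± 0.33 (adjusted p = 1.49e-04) and stayed called under the other 5 scalings and corrections. Stat5a, a signal transducer of growth hormone, fell by 1.87 on the log2 scale (SE 0.34, adjusted p = 7.88e-04), a call lost with all-probe scaling (-0.88) and spike-in scaling (-0.19). Stat5b, also in this list, was not called here. It was called higher with all-probe scaling (2.08), quantile normalization (1.91), spike-in scaling (2.77) and the authors' values (2.17). After normexp with the offset Stat5b was at -0.33 and not called. Igfbp7 rose by 1.31 ± 0.32 (adjusted p = 0.00418), a call lost after normexp with the offset (0.45, adjusted p = 0.271), and Irs2, an adaptor of the insulin receptor, by a fitted 1.64 ± 0.32 (adjusted p = 0.00119) from undetected AAV-V arrays, which turned to -0.37 after the same correction. The growth hormone receptor Ghr was at 0.59 ± 0.48 (adjusted p = 0.294), and the IGF binding proteins Igfbp1 and Igfbp2 were at 1.35 ± 1.19 (adjusted p = 0.335) and 1.00 ± 0.48 (adjusted p = 0.0874). In AAV-V HFD 1 was called higher, Hnf4a, and 2 lower, Stat5a and Igfbp3, beside 25.1% and 16.9% of all tested probes. That call of Hnf4a was lost after normexp with the offset (0.79). Those of Stat5a and Igfbp3 were lost with all-probe scaling (-0.48 and -0.39) and with spike-in scaling (-0.10 and -0.0092). Irs2 was higher in AAV-GP73 than in AAV-V HFD, at least 1.97-fold with the main scaling (limma adjusted p of the fitted change = 0.00170). It was the 1 gene of these 6 lists called between those groups. That call was lost after normexp with the offset, at a log2 difference of 0.75 (adjusted p = 0.45).

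**Figure D4:**
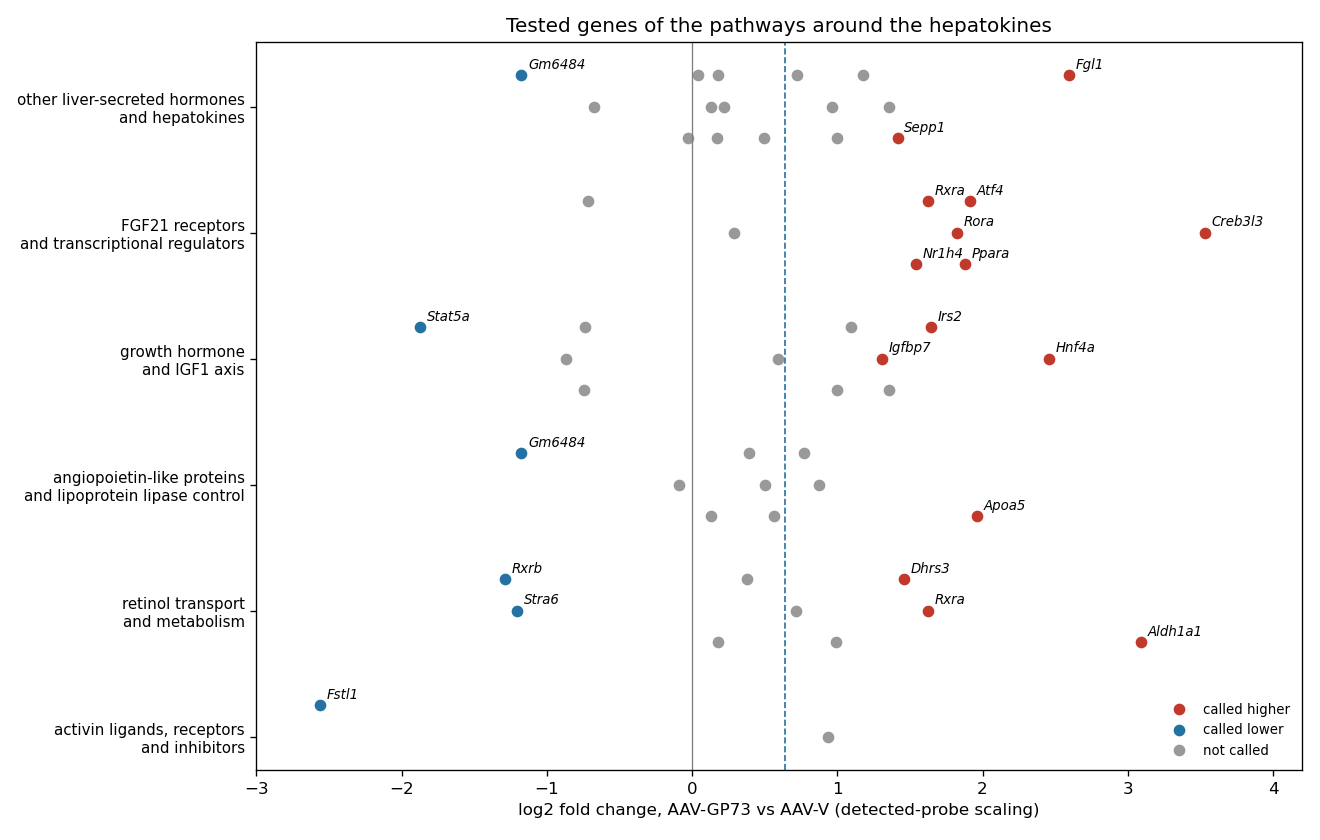
Log2 fold change of AAV-GP73 against AAV-V (x axis) for the tested genes of 6 role-based lists (rows), each gene by its brightest probe, with red for called higher, blue for called lower, grey for not called, and a dashed line at the median of all tested probes, 0.64. Points are spread within a row for legibility, and the FGF21 row holds 6 red points and no blue one.

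Around ANGPTL4, lipoprotein lipase control had 9 of 18 genes tested, 8 of them detected on all arrays of both groups, with Apoa5, an activator of lipase action, higher by 1.96 ± 0.39 (adjusted p = 0.00119) and Gm6484, now named Angptl8, lower by a log2 change of -1.18 ± 0.44 (adjusted p = 0.0363). The Gm6484 call was lost under each of the other 5 scalings and corrections, and its sign turned with spike-in scaling (0.51), whereas Apoa5 was called under all 5. Furin, which cleaves angiopoietin-like proteins, was at 0.77 ± 0.26 (adjusted p = 0.0222), under 2-fold. The list thus had 1 higher and 1 lower call in AAV-GP73, beside 34.0% and 17.9% of all tested probes. It had no call in AAV-V HFD, where 25.1% of all tested probes were called higher and 16.9% lower.

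Around RBP4, 9 of 25 genes of retinol transport and metabolism were tested, and the AAV-GP73 calls were 3 higher and 2 lower, again beside 34.0% and 17.9% of all tested probes, with 5 of the 9 detected on all arrays of both groups. Aldh1a1, which oxidizes retinal, rose by 3.09 ± 0.46 (adjusted p = 2.46e-04) and was called under every scaling tried. The higher calls also held Rxra and Dhrs3, and the lower calls were Rxrb (-1.29 ± 0.25) and the RBP4 receptor Stra6 (-1.21 ± 0.32, adjusted p = 0.00650), both lost with all-probe scaling and turned in sign by spike-in scaling (0.39 and 0.47). The Rxrb call was also lost after normexp with the offset (-0.93) and that of Stra6 with the authors' values (-0.97). Ttr, the partner of RBP4 in plasma, was at 0.18 ± 0.35 (adjusted p = 0.668). In AAV-V HFD 3 genes of the list were called, all higher, among them Aldh1a1 and Rxra, where 25.1% of all tested probes were called higher.

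Among 18 activin ligands, receptors and inhibitors only 2 were tested, and Fstl1, a follistatin-like protein, was lower in AAV-GP73 by a log2 change of -2.56 ± 0.28 (adjusted p = 6.37e-05), and also in AAV-V HFD, by -2.57 (adjusted p = 1.89e-04). Its sign held under the other 5 scalings and corrections in AAV-GP73, and its call in 4 of them. The ligand gene Inhbc was not tested. Among 37 other liver-secreted factors 16 were tested in AAV-GP73, with Sepp1, the selenium carrier, higher by 1.42 ± 0.33 (adjusted p = 0.00304), Fgl1 higher by 2.60 ± 1.02 (adjusted p = 0.0446) and Gm6484 lower. These 2 higher calls and 1 lower call stand beside 34.0% and 17.9% of all tested probes. The median log2 fold change of the 16 was 0.36, against 0.64 for all tested probes. The Fgl1 call was lost with quantile normalization (2.68, adjusted p = 0.0661), after normexp with the offset (1.05, adjusted p = 0.319) and with the authors' values (2.72, adjusted p = 0.0836). In AAV-V HFD Fgl1 was called higher at 2.91 (adjusted p = 0.0322), which was lost after normexp with the offset (1.37, adjusted p = 0.113) and with the authors' values (3.08, adjusted p = 0.0604). Igfals and Lpl were not tested.

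Markers of liver cell types were read beside these values. In AAV-GP73, 34.0% of all tested probes were called higher and 17.9% lower. Of 8 hepatocyte markers 7 were tested, and 1, Cps1, was called lower in AAV-GP73 and none higher. Summed scaled signals of the 7, on the linear scale, ran from 16316 to 25601 on AAV-V arrays, 15843 to 21187 on AAV-GP73 arrays and 10201 to 16075 on AAV-V HFD arrays. Of 8 Kupffer cell and macrophage markers 4 were tested, with Clec4f called higher in AAV-GP73 and summed signals of 92.3 to 109, 99.5 to 149 and 103 to 202 in the same order of groups. Of 7 stellate cell markers 3 were tested, with Dcn called higher and Des lower and sums of 136 to 258, 158 to 191 and 74.0 to 117. Of 6 endothelial markers 1 was tested, Clec4g, called higher with 15.3 to 27.6 on AAV-GP73 arrays against 3.44 to 3.76, not well above background, on AAV-V arrays. None of the 5 cholangiocyte and 4 adipocyte markers was detected throughout a group. The marker calls and sums are those of the main scaling, and the calls moved with it. In AAV-GP73, all-probe scaling called 3 hepatocyte markers higher and 0 lower, and spike-in scaling 6 and 0. For Kupffer cell and macrophage markers these were 3 and 0, and 4 and 0. After normexp with the offset no marker of either list was called. The part of these markers in the hepatokine values was not tested.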

How the data were processed

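The 9 hepatokine genes, the role lists and the tests were chosen with earlier results of these data known. RNA had been labelled with Cy3 and hybridized once per sample, and samples were grouped by their labels. Intensity values, as deposited, are processed signals of Feature Extraction (12.0.3.1 per the file headers, 10.7 in the submitters' processing notes), background-corrected within each array and not scaled between arrays. As a second kind of file, the authors deposited log2 values, normalized by a method not given in the sources used here, which served as an alternative. Each array held 62976 spots, 59305 of them not controls, of which 98 to 151 were flagged and left out and 0 were saturated. The number of arrays limits the precision.

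Calculations used R 4.3.3 and limma 3.58.1. Spots of a probe name were averaged on the log2 scale, arrays were shifted as stated in the report because most probes were not detected, and each probe was fitted over all 9 arrays with lmFit and eBayes. P-values were adjusted by the Benjamini-Hochberg method over 6593 probes, and adjusted p in the report are from this fit. Values follow ± as SE for fold changes. A lower bound set an undetected array to its lowest detected signal or to the probe's own value, whichever was higher. Named were all hepatokine probes, 10 partner genes, the 3 most changed called genes of each list, genes singled out by small counts and the 3 genes most alike. Stat5b was added beside Stat5a. Probe sequences came from the scanner files and promoters from RefSeq, with no entry for Angptl4. Residuals of equal replicate numbers correlated at -0.11 to 0.17, with 2 of 9 above 0.1, so the numbers were not used as pairs. The fit was tested on simulated arrays with known changes. The list counts include 2 genes whose values are not reported here.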

Additional observations from a re-analysis of the deposited data

How the results depend on the processing

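The limits are 3 arrays per group, AAV-V arrays on which fewer probes were detected, and a scaling that decides the balance of calls. For AAV-GP73 against AAV-V, 3 hepatokine probes were called, against 7 with all-probe scaling, 8 with spike-in scaling, 1 after normexp with an offset of 16, 1 with the authors' values, 2 with the replicate block and 1 to 2 without any 1 array. Of all probes 3421 were called, against 5217 with spike-in scaling, 1177 after normexp, 47067 with no filter (44703 of them lower, chiefly probes detected throughout no group) and 1251 among probes detected on all 9 arrays. For AAV-V HFD against AAV-V, 1 hepatokine probe was called, against 4 with all-probe scaling, 2 with quantile normalization, 6 with spike-in scaling, 2 with the authors' values, 0 with the brightest probe of each gene, which leaves the called Igf1 probe out, and 1 to 3 without any 1 array. Of all probes 2770 were called, against 4514, 1526, 45091 and 1088 under the same 4 settings and 1697 with the adjusted form of the methods' t-test. Between AAV-GP73 and AAV-V HFD, 0 hepatokine probes were called, with 0 to 1 without any 1 array, and 177 of all probes, against 48 (quantile), 378 (spike-in), 33 (normexp), 27 (authors' values), 78 (no filter), 71 (all 9 arrays), 389 and 13 (the methods' t-test unadjusted and adjusted) and 38 to 165 without any 1 array. The cause of these differences was not tested.

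Signs turned as follows, none of them to a call. In AAV-GP73 against AAV-V the called Igf1 probe A_55_P2085979 was at 0.16 with spike-in scaling, and after normexp Angptl6, Inhbe and Lect2 were at -0.31, -0.49 and -0.50. In AAV-V HFD against AAV-V, Angptl6 was at 0.64 with all-probe scaling, 0.36 with quantile normalization, 1.02 with spike-in scaling and 0.43 with the authors' values, Igf1 probe A_51_P147942 was at -0.020 with quantile normalization, -0.047 after normexp and -0.31 with the authors' values, and after normexp Angptl4, Inhbe and Lect2 were at -0.36, -0.32 and -0.52. In AAV-GP73 against AAV-V HFD, Lect2 was at 0.028 after normexp. Without any 1 array the AAV-V HFD differences from AAV-V ran from -0.94 to 1.01 for Angptl4, -0.68 to 0.054 for Angptl6, -0.27 to 0.56 for Ahsg and -0.28 to 0.38 for Igf1 probe A_51_P147942, and those of AAV-GP73 from AAV-V HFD from 1.01 to 2.95 for Angptl4, -0.38 to 0.64 for Fetub, -0.28 to 0.55 for Ahsg, -1.68 to 0.44 for Inhbe and -0.96 to 0.054 for Lect2. The replicate block took the call of Fetub in AAV-GP73 (log2 fold change 1.42, adjusted p = 0.0641) and changed no other hepatokine call. The methods' t-test also left Fetub uncalled, adjusted (0.101) or not (0.0609). Over all alternatives to single hepatokine values, 287 of 336 and, without any 1 array, 132 of 162 kept both sign and side of the threshold. These totals include values that were not called and stayed so. In AAV-GP73 against AAV-V, Angptl4 was called in 11 of 18 alternatives and Fetub in 9 of 19. Igf1 probe A_55_P2085979 was called in 16 of 18.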
